A study of Mus musculus with 20 samples.

Results

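Myom2 and 7 genes of skeletal muscle were followed mouse by mouse in the livers of 5 inbred strains. The members were every non-control probe whose gene name in the scanner files was Myom2, Myom1, Acta1, Ckm, Tnnt3, Myh4, Mylpf or Pvalb, which gave 11 probes of 8 genes among 55642 probes with 34632 gene names. Myom2 was chosen because its level had already been seen to differ between strains in these arrays, so its strain differences are given here as a description with no test. The question was whether that pattern goes with the muscle genes of a sample or stands apart from them.

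The series holds liver RNA of 20 male mice, 4 per strain, with 1 single-colour array (Cy3) per mouse. The strains were B6 (C57BL/6), NZO (NZO/HiBomDife), DBA (DBA/2J), C3H (C3HeB/FeJ) and 129Ola (129P2/OlaHsd), and every mouse ate a high fat diet with 45% fat, so no group on another diet enters. Per the series title, NZO mice are obese and prone to diabetes, C3H and DBA mice are prone to it without that obesity being named, and 129Ola and B6 mice are lean and resist it. The liver was taken at week 6, which the design text gives as the end of the feeding and the extraction text as the age of the mice. Mice are named by strain and animal number. Levels are log2 processed signal minus the 75th percentile of the same array, so 0 is the level below which 75% of probes lie, and a level of 1 probe is not set against that of another. The share of probes well above background ran from 40.0% to 59.0% of each array, and the 10 hepatocyte genes examined were well above background on all 20 arrays, with mean levels from 9.44 to 9.76 per mouse. The lowest signal well above background lay between -3.15 and -2.56 on the C3H and 129Ola arrays and between -4.33 and -3.72 on the others. A probe in C3H or 129Ola could thus fail to pass at a level that passed in the other strains. The labels do not tie any 2 samples to 1 animal, and p-values measure the spread between these mice. In whole liver, fewer cells of a type and less RNA per cell cannot be told apart.

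Skeletal muscle contracts through sarcomeres, in which thin filaments of actin slide along thick filaments of myosin. The thick filaments are held in register at the M-band, in the middle of the sarcomere, by the myomesins (Myom1, Myom2 and Myom3), which bridge neighbouring myosin filaments and bind titin. Healthy liver has no sarcomeres, and its parenchyma is made of hepatocytes.

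Myom2 was read by 1 probe (A_51_P431785), mapped by the array design to chr8:15133322-15133381 of mm9 on the plus strand. No annotation of that build was used here, so exon or untranslated positions are not given. The first 30 of its 60 bases are shown because all Myom2 values rest on it, and the 60-base probes of Acta1, Ckm and Tnnt3 are shown because they carry the contrasting pattern. Capitals mark the 27 bases that both Tnnt3 probes share, so those probes are not independent readings.
Myom2 A_51_P431785: cacatttctggaaaccctttgtggagcctt
Acta1 A_51_P246854: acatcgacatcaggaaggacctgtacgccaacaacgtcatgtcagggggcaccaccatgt
Ckm A_51_P380807: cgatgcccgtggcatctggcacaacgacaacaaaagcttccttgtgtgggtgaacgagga
Tnnt3 A_51_P345699: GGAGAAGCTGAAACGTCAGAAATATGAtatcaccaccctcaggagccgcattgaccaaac
Tnnt3 A_55_P2088375: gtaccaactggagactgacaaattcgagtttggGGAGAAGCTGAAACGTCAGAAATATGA

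In mm9 the Acta1 probe maps to chr8:126416197-126416256 on the minus strand. On the plus strand of chromosome 7, the Ckm probe maps to chr7:20002222-20004829, a span longer than the probe. The Tnnt3 probes map to chr7:149698500-149700262 (A_51_P345699) and chr7:149698467-149698526 (A_55_P2088375), also on the plus strand. No strain genome was used here, so the probes were not compared with the sequence of each strain.

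Myom2 was well above background in all 8 NZO and 129Ola livers and in 2 of the other 12. Its level was 4.44 in NZO 3, 3.83 in NZO 7, 3.76 in NZO 9 and 4.34 in NZO 11. In 129Ola it was 3.74 in mouse 4, 4.61 in mouse 5, 4.45 in mouse 7 and 4.39 in mouse 9. These 2 strains overlapped, and none of their mice overlapped any mouse of the other 3 strains. In B6 the level was -6.34 in mouse 9, -2.72 in mouse 10, -6.52 in mouse 11 and -4.68 in mouse 15. In DBA it was -5.92 in mouse 5, -2.59 in mouse 9, -4.36 in mouse 8 and -5.83 in mouse 15. B6 10 and DBA 9 were the only mice of those strains in which the probe was well above background. In C3H the level ran from -5.32 to -4.85 and was not well above background in any of the 4 mice.

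Ordered by mean level, Myom2 stood at 4.30 ± 0.38 (SD, n = 4) in 129Ola, 4.09 ± 0.35 in NZO, -4.68 ± 1.56 in DBA, -5.06 ± 1.77 in B6 and -5.16 ± 0.21 in C3H. The first 2 strains did not differ beyond their spread, though 129Ola was scanned apart from NZO. Neither did the last 3, but Myom2 was well above background in only 1 B6, 1 DBA and no C3H liver. Their likeness is thus mostly one of values near background. The difference NZO minus B6 was 9.16 (SE 0.72) on the log2 scale, and NZO minus DBA was 8.77 (SE 0.72). Because most B6 and DBA values were not well above background, the size of these differences depends on how background is handled. DBA minus B6 was 0.39 (SE 0.72). C3H minus 129Ola was -9.46 (SE 0.72). With normexp background correction in place of the scanner's own, the same differences were smaller, at 5.07 for NZO minus B6, 5.03 for NZO minus DBA and -4.64 for C3H minus 129Ola, with the same signs. Because C3H was not well above background, 129Ola stood at least 159-fold higher, set against the lowest signal well above background on each C3H array or the probe's own signal where that was higher.

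**Figure D1:**
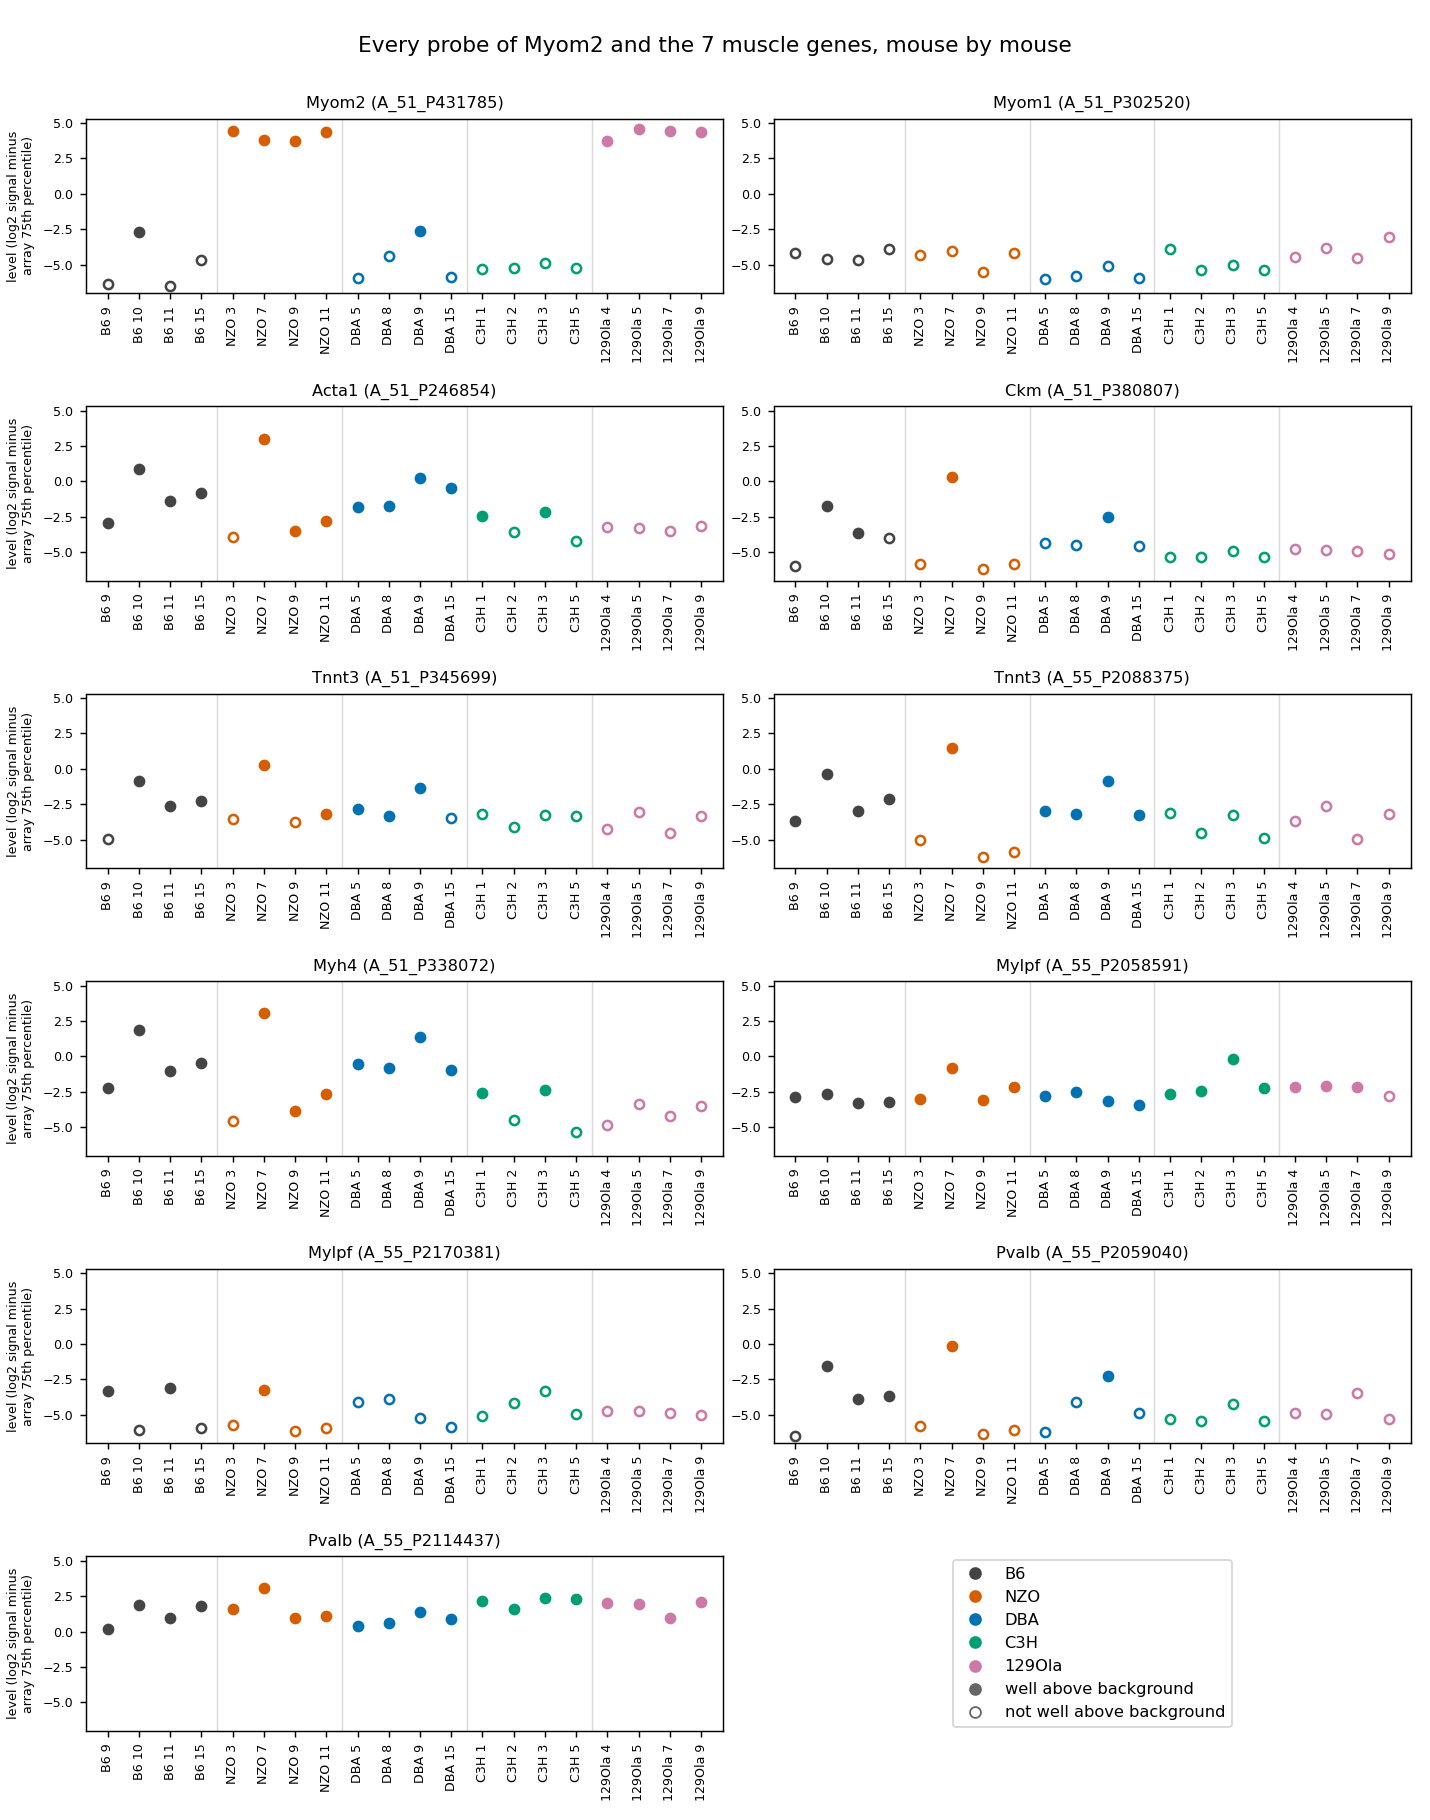
Level of each of the 11 probes (y axis, log2 signal minus the array's 75th percentile) in each of the 20 mice (x axis, grouped by strain). Filled points were well above background and open points were not. Myom2 is high in all NZO and 129Ola mice, while Acta1, Ckm, Tnnt3, Myh4 and the probe A_55_P2059040 of Pvalb peak in NZO 7, B6 10 and DBA 9.

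The sarcomere genes of the thin and thick filaments did not share the strain pattern of Myom2, and single mice stood out instead. Acta1, the skeletal muscle actin, was at 2.99 in NZO 7 and at -3.93, -3.50 and -2.76 in NZO 3, 9 and 11. In B6 it was -2.91 in mouse 9, 0.86 in mouse 10, -1.39 in mouse 11 and -0.79 in mouse 15. In DBA it was -1.82 in mouse 5, 0.26 in mouse 9, -1.73 in mouse 8 and -0.43 in mouse 15. The highest liver of each of these 3 strains was thus NZO 7, B6 10 and DBA 9, and the strains overlapped. In C3H Acta1 ran from -4.18 to -2.19, and in 129Ola from -3.52 to -3.15 with no array well above background.

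Myh4, the myosin heavy chain of the fastest fibres, gave the same 3 mice. Its level was 3.05 in NZO 7 against -4.56 in NZO 3, -3.86 in NZO 9 and -2.62 in NZO 11. In B6 it was 1.86 in mouse 10 and -2.19, -1.03 and -0.49 in mice 9, 11 and 15. In DBA it was 1.35 in mouse 9 and -0.56, -0.79 and -0.97 in mice 5, 8 and 15. NZO therefore held both the highest level and, with NZO 7 set aside, the 3 lowest levels of these 3 strains. Myh4 ran from -5.29 to -2.37 in C3H. In 129Ola it ran from -4.80 to -3.38, with no array well above background.

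Tnnt3, the troponin T of fast fibres, ties the calcium switch of the troponin complex to tropomyosin. Its probe A_55_P2088375 was at 1.45 in NZO 7 and at -5.01, -6.20 and -5.88 in NZO 3, 9 and 11, which were not well above background. In B6 it was -0.35 in mouse 10 and -3.65, -2.98 and -2.13 in mice 9, 11 and 15. In DBA it was -0.83 in mouse 9 and -2.95, -3.20 and -3.23 in mice 5, 8 and 15. The other probe, A_51_P345699, put the same mice on top, at 0.25 in NZO 7, -0.88 in B6 10 and -1.31 in DBA 9. Neither probe was well above background in any C3H or 129Ola liver, but those arrays needed a higher signal to pass. In 129Ola 5, A_55_P2088375 was at -2.62, higher than the -2.98 of B6 11, where it was well above background.

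Ckm, the muscle creatine kinase that buffers ATP and also sits at the M-band, was well above background in 4 livers. They were NZO 7 at 0.28, B6 10 at -1.70, DBA 9 at -2.54 and B6 11 at -3.62. Its level in the other 16 livers ran from -6.14 to -3.99. Pvalb encodes parvalbumin, a calcium buffer of fast fibres. Its probe A_55_P2059040 was well above background in 5 livers, at -0.13 in NZO 7, -1.57 in B6 10, -2.24 in DBA 9, -3.65 in B6 15 and -3.85 in B6 11. Both probes thus led with the same 3 mice in the same order.

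The remaining muscle probes went another way. The second Pvalb probe, A_55_P2114437, was well above background on all 20 arrays, with strain means from 0.83 ± 0.42 (SD, n = 4) in DBA to 2.09 ± 0.37 in C3H, and NZO 7 was again its highest liver at 3.04. Mylpf encodes the regulatory light chain of fast skeletal myosin. Its probe A_55_P2058591 was highest in C3H 3 at -0.15, followed by NZO 7 at -0.85, and lay between -3.40 and -2.06 in the other 18 livers. The other Mylpf probe, A_55_P2170381, was well above background only in B6 9, B6 11 and NZO 7. Probes of the same gene therefore disagreed for both Mylpf and Pvalb. Myom1, the most widely expressed myomesin of muscle, was not well above background in any of the 20 livers, NZO 7 included, and its levels ran from -6.02 to -3.05.

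A mean over 6 probes, those of Acta1, Ckm, Myh4 and Tnnt3 and the probe A_55_P2059040 of Pvalb, was formed after these values had been seen. It was 1.31 in NZO 7, -0.30 in B6 10 and -0.88 in DBA 9, and between -4.96 and -2.22 in the other 17 livers. At the highest of these means, NZO 7 had a Myom2 level of 3.83, inside the range of 3.76 to 4.44 of its strain. NZO 3, with a mean of -4.76 and none of the 6 probes well above background, had the highest Myom2 level of its strain. In 129Ola Myom2 was between 3.74 and 4.61, and none of the 6 probes was well above background in any liver. The mean of the 6 ran from -4.27 to -3.68 in that strain. The lowest signal well above background was higher on those arrays than on the NZO arrays, so this mean is not set against NZO. Within B6 and DBA the order was different, since B6 10 and DBA 9 were highest for both Myom2 and the muscle mean. The part of muscle RNA in those 2 Myom2 values was not tested.

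**Figure D2:**
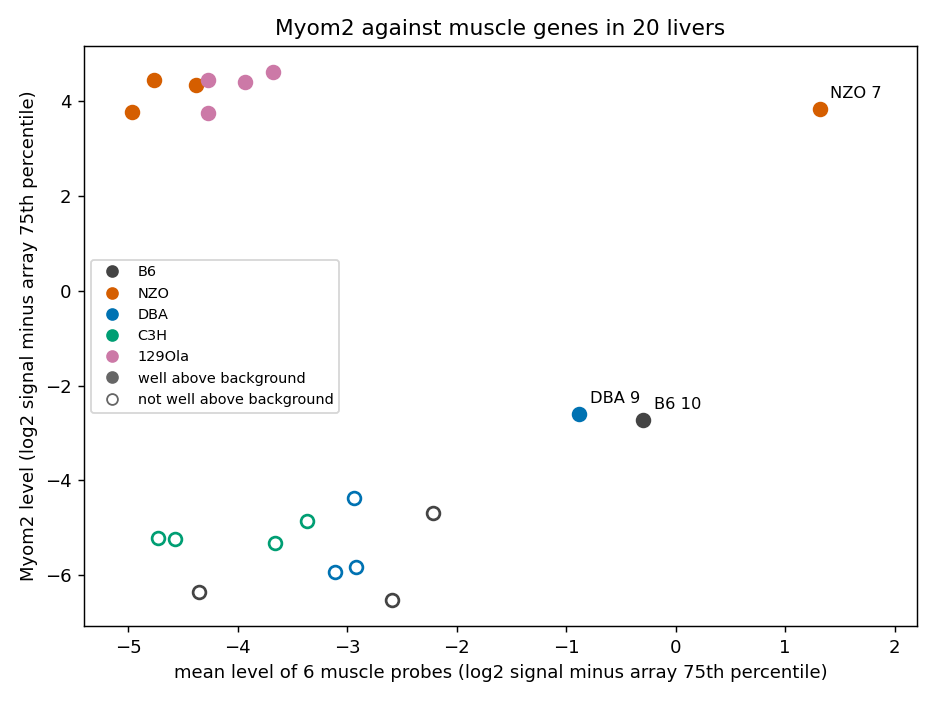
Myom2 level (y axis) against the mean level of 6 muscle probes (x axis), both as log2 signal minus the array's 75th percentile, 1 point per mouse. The NZO and 129Ola mice lie between 3.74 and 4.61 on the y axis at muscle means from -4.96 to 1.31, and B6 10 and DBA 9 lie above the other B6 and DBA mice on both axes.

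The broader set of muscle genes singled out the same livers. Of 45 other skeletal muscle genes, 33 were well above background in NZO 7, 30 in B6 10 and 26 in DBA 9, and 12 to 25 in the other mice. The mean level over the 45 was -1.57 in NZO 7, -2.61 in B6 10 and -2.79 in DBA 9, and ran from -3.77 to -3.05 elsewhere. In 129Ola 12 to 16 of the 45 were well above background, and Myom2 was high in all 4 mice. Those arrays needed a higher signal to pass, so this count is not set against those of B6, NZO and DBA. The mean over the 45 ran from -3.36 to -3.16 in 129Ola and from -3.77 to -3.50 in NZO 3, 9 and 11. Signals near background read higher on the 129Ola arrays, so these means are not compared either. Sln, for one, was well above background on no array, with means of -4.83 in 129Ola and -6.13 in NZO. Of the 45, 10 were not well above background on any array and 9 were on every array, so the list is not silent in liver.

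The strain differences of the muscle members were tested with limma over 28417 probes, each well above background in all 4 mice of some strain. Of the 7 muscle genes, 5 had a probe that passed this filter; Myom1 and Ckm did not. None of the 7 was called at an adjusted p under 0.05 in NZO minus B6, where 17.7% of all tested probes were called, 9.04% as higher and 8.66% as lower. None was called in NZO minus DBA, against 17.0% of probes (9.15% higher and 7.84% lower). None was called in DBA minus B6, against 14.8% of probes (6.89% higher and 7.95% lower). In C3H minus 129Ola none was called either, against 35.5% of probes (14.4% higher and 21.0% lower). None of the 5 tested genes had an unadjusted p under 0.05 in any of the 4 comparisons. In NZO minus B6, Myh4 differed by -1.53 (SE 1.27, limma adjusted p = 0.464), Acta1 by -0.74 (SE 1.14, adjusted p = 0.717) and Tnnt3 by -1.63 (SE 1.26, adjusted p = 0.426). These standard errors are wide enough that a difference of 1 log2 step could not have been told from 0.

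These values turned on NZO 7. That mouse stands apart by its level of these same muscle genes, and leaving it out while B6 10 and DBA 9 stay in removes the high mouse of 1 strain only, so the values without it are given as a description. With 3 NZO mice left, 3 muscle genes passed the threshold as lower in NZO than in B6 and the same 3 as lower in NZO than in DBA. Their probes entered the test through B6 and DBA alone, the higher strains here, so the filter favoured a lower call in NZO. The log2 difference from B6 was then -2.34 (SE 0.71) for Acta1 and -3.22 (SE 0.88) for Myh4. The third gene, Tnnt3 (A_55_P2088375), was not well above background in the 3 NZO mice and stood at least 2.95-fold lower than in B6 and at least 2.44-fold lower than in DBA. Against DBA the differences were -2.46 (SE 0.71) for Acta1 and -3.44 (SE 0.88) for Myh4. Among all probes tested without NZO 7, 16.5% were called in NZO minus B6, 7.36% as lower, and 15.4% in NZO minus DBA, 6.45% as lower. NZO minus B6 for Myom2 was 9.24 (SE 0.80) without that mouse.

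With B6 10, NZO 7 and DBA 9 all left out, a choice also made from the muscle levels, Acta1 did not pass the threshold against B6 (-1.70, SE 0.58, limma adjusted p = 0.0684). Myh4, at -2.44 (SE 0.72), and Tnnt3, at least 1.89-fold lower, did. Against DBA, Acta1, Myh4 and Tnnt3 all passed as lower. Their probes again entered the test through B6 and DBA alone, so these calls are a description. Among all probes, 6.15% were called lower against B6 and 5.62% against DBA. Myom2 was not well above background in the 3 B6 and 3 DBA mice that remained, and the 3 NZO mice stood at least 312-fold above those of B6 and at least 262-fold above those of DBA.

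**Figure D3:**
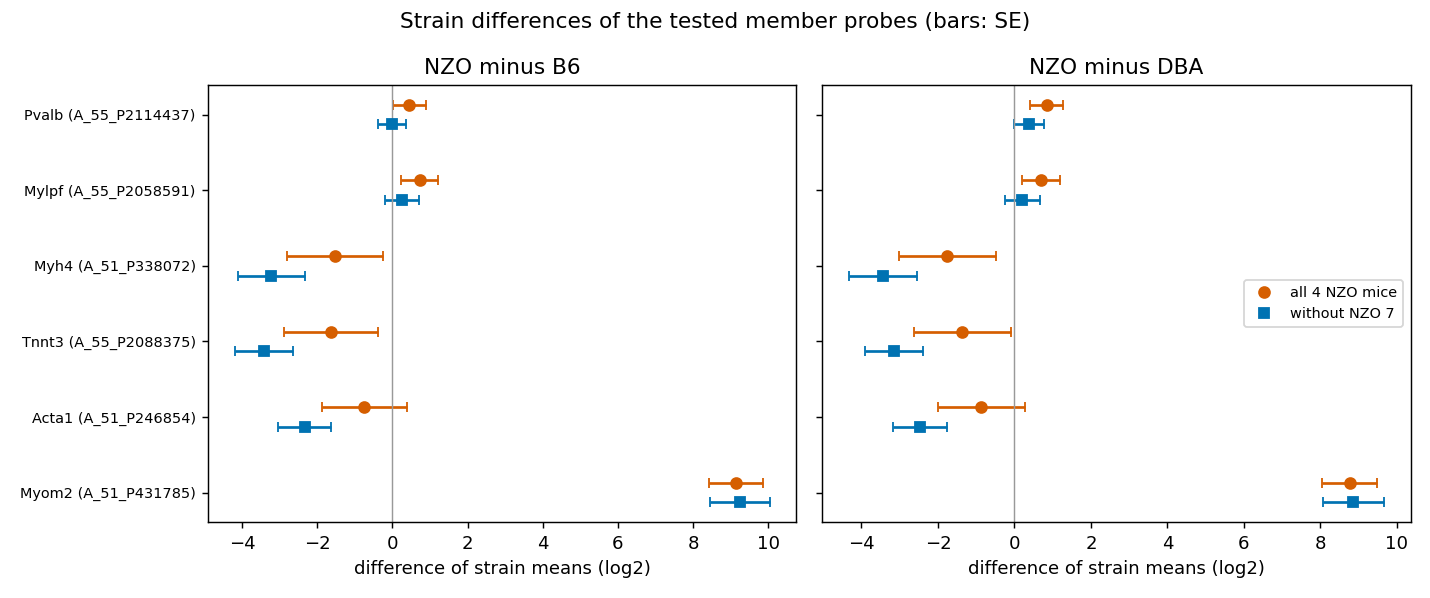
Difference of strain means on the log2 scale (x axis) for the member probes that entered the test, with all 4 NZO mice (circles) and without NZO 7 (squares). Bars are standard errors. Leaving out NZO 7 moves Acta1, Myh4 and Tnnt3 further below 0 and leaves Myom2 near 9.

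With the mean level of the 7 muscle genes held in the fit, the Myom2 difference NZO minus B6 was 9.25 (SE 0.68), against 9.16 (SE 0.72) without it. NZO minus DBA was 8.78 (SE 0.68) and C3H minus 129Ola was -9.47 (SE 0.68). The slope was 0.40 log2 steps of Myom2 per log2 step of muscle. With the 45 other muscle genes in its place the NZO minus B6 value was 9.10 (SE 0.71), and with the 6 probes it was 9.39 (SE 0.68). The mean of the 7 genes was 0.67 in NZO 7 and -3.37, -3.55 and -2.80 in NZO 3, 9 and 11. In B6 it ran from -3.26 to -0.75. High and low NZO mice offset each other, which left the fit little room to move the difference. With all 20 mice in the fit, holding any of these 3 muscle means moved the difference by less than its standard error. Without NZO 7 that was not so, since the difference was 10.9 (SE 0.61) with the mean of the 7 genes held and 9.24 (SE 0.80) without it.

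Of the 5 days on which arrays were scanned, NZO mice were scanned on 2, each time beside B6 and DBA mice. On scan day 1, with 3 NZO mice and 2 B6 mice (B6 10 and B6 15), NZO minus B6 was 7.88 for Myom2 and -3.43 for Acta1. On scan day 2, where NZO 7 was the only NZO mouse and stood against 2 B6 mice, it was 10.3 for Myom2 and 5.14 for Acta1. The Myom2 difference thus had 1 direction on both days, and that of Acta1 turned. The liver high in muscle genes was B6 10 on day 1 and NZO 7 on day 2. NZO minus DBA for Myom2 was 6.77 on day 1 (3 mice against DBA 9) and 9.75 on day 2 (1 against 1). C3H and 129Ola were each scanned on a day and on slides of their own, so strain and scan cannot be told apart for that comparison.

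Myom3, the third myomesin, had a strain pattern of its own. The probe was clear of background in every mouse, and it was highest in NZO, at 4.05, 3.56, 3.65 and 4.33 in mice 3, 7, 9 and 11. Its mean was 0.47 ± 0.88 (SD, n = 4) in DBA, 0.49 ± 0.81 in C3H, -1.28 ± 0.49 in B6 and -1.15 ± 0.61 in 129Ola. No NZO mouse overlapped any mouse of another strain, and NZO 7, the liver with the highest muscle mean, had the lowest Myom3 of its strain. Myom3 was higher in NZO than in B6 by 5.18 (SE 0.44, limma adjusted p = 1.18e-07) and than in DBA by 3.43 (SE 0.44, adjusted p = 1.61e-05), and both calls held in all 32 alternative settings. It was also higher in DBA than in B6 by 1.75 (SE 0.44, limma adjusted p = 0.00957) and in C3H than in 129Ola by 1.64 (SE 0.44, adjusted p = 0.00832). The first of these was lost with scan day as a block (adjusted p = 0.0793) and the second with slide as a random block (adjusted p = 0.144). In 129Ola, then, Myom2 was high and Myom3 was not, and in NZO both were.

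**Figure D4:**
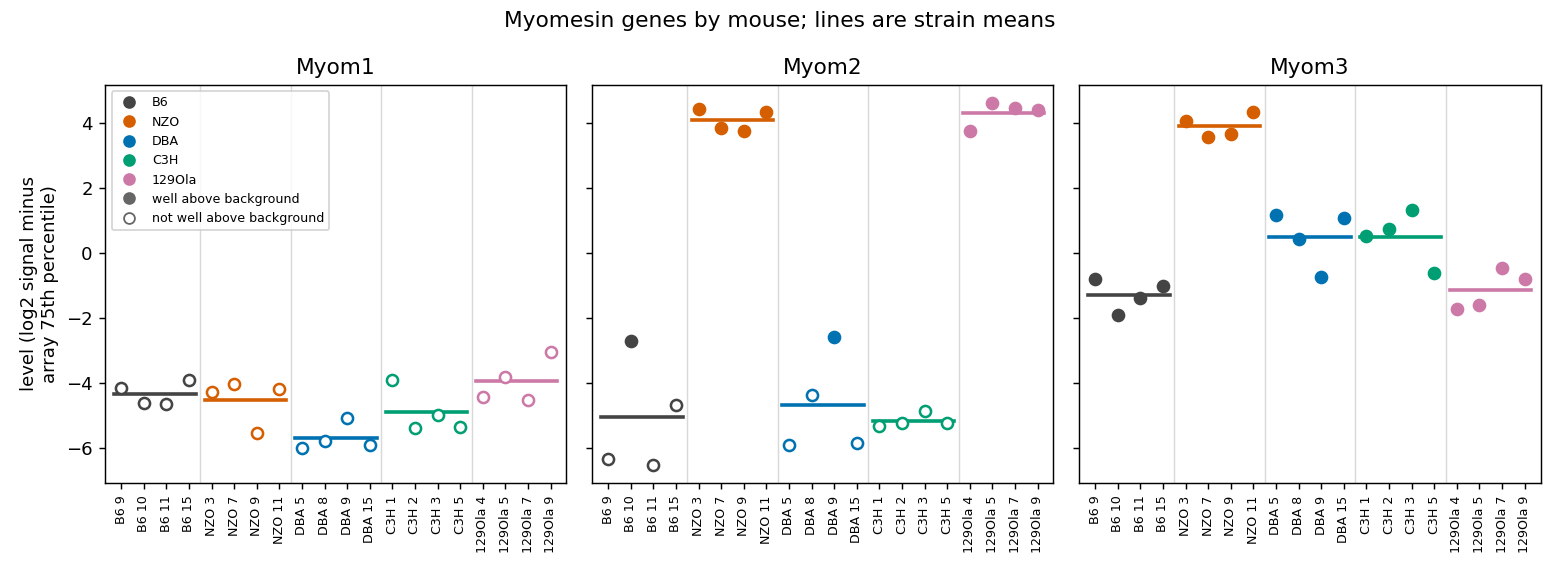
Levels of Myom1, Myom2 and Myom3 (y axis, log2 signal minus the array's 75th percentile) in each mouse (x axis, grouped by strain), with lines at the strain means and open points where the probe was not well above background. Myom1 is open in all 20 mice, Myom2 is high in NZO and 129Ola, and Myom3 is highest in the 4 NZO mice; heights are not compared between genes.

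Of 13 M-band genes other than the members, 7 were tested, and 3 of the 13 also stand in another list. In NZO minus B6, 2 were higher and 0 lower, where 9.04% of all probes were called higher. The median difference of the 7 was 0.09, against 0.03 over all probes. Besides Myom3, Cmya5 (myospryn, a large muscle protein that binds titin) was higher in NZO than in B6 by 1.18 (SE 0.30, limma adjusted p = 0.00958). Myom3 alone was higher in NZO than in DBA, and none of the 7 was lower. In DBA minus B6, Myom3 and Cmya5 were the 2 genes called, with Cmya5 higher by 1.52 (SE 0.30, limma adjusted p = 0.00133). In C3H minus 129Ola, Myom3 was higher, while Cmya5 differed by -1.63 (SE 0.30, limma adjusted p = 0.000519). Obsl1, an obscurin-like linker of the M-band, was called lower in C3H but was not well above background in either strain, and its call was lost without C3H 3 or 129Ola 4 (adjusted p up to 0.0758).

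Of the 45 other skeletal muscle genes, 21 were tested. In NZO minus B6, 5 were called higher and none lower, where 9.04% of all probes were higher and 8.66% lower, with a median of 0.04 against 0.03 over all probes. Tmod4, which caps the pointed end of thin filaments, was higher by 1.67 (SE 0.21, limma adjusted p = 1.73e-05). Neb (nebulin, a ruler of the thin filament) was higher by 1.14 (SE 0.21, adjusted p = 0.000783), and Tnnt1 (slow troponin T) by 1.48 (SE 0.31, adjusted p = 0.00229). Mybpc1 and Nrap were higher by 0.76 (limma adjusted p = 0.0283) and 0.40 (adjusted p = 0.0315), and both calls were lost when NZO 7 was left out (adjusted p = 0.0976 and 0.0651). Mybpc1 was also lost without B6 9, B6 11, B6 15 or NZO 9 alone, and Nrap without B6 9, B6 11, NZO 3 or NZO 11 alone (adjusted p up to 0.112). The 5 genes were well above background in all NZO and B6 mice.

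In NZO minus DBA, Neb was the 1 gene of the 21 called, where 17.0% of all probes were, and it was higher by 0.71 (SE 0.21, limma adjusted p = 0.0268). That call was lost without any 1 of NZO 9, NZO 11, DBA 5 or DBA 15, with adjusted p from 0.0635 to 0.0941. In DBA minus B6, 1 was higher, namely Tmod4 by 1.96 (SE 0.21, limma adjusted p = 2.65e-06), where 6.89% of all probes were higher. The 2 lower genes were Tpm2, a tropomyosin, at -0.82 (limma adjusted p = 0.0165) and Tnni1, slow troponin I, against 7.95% of probes lower. The probe of Tnni1 entered the test through B6 alone, the higher strain here, so the filter favoured a difference and its bound of at least 1.54-fold lower is a description. Leaving out B6 15 or DBA 15 ended the call of Tpm2 (adjusted p up to 0.0686). In C3H minus 129Ola, where 35.5% of all probes were called, Tmod4 was higher by 2.06 (SE 0.21, limma adjusted p = 1.40e-06) and Myh2, a fast myosin heavy chain, was at least 1.63-fold higher (adjusted p = 0.0103). Tpm2 was the 1 lower gene, at -0.69 (limma adjusted p = 0.0231, and up to 0.0826 without C3H 1, 129Ola 5 or 129Ola 7). Tmod4 was thus low in B6 and 129Ola, at -1.69 and -1.20, and near 0 or above in the other strains, a pattern other than that of Myom2.

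Other cell types that a liver sample could hold were checked with their own lists, whose counts stand against 17.7% of all probes called in NZO minus B6, 17.0% in NZO minus DBA, 14.8% in DBA minus B6 and 35.5% in C3H minus 129Ola. Of 12 cardiac muscle genes, 4 were tested. Tnnt2, the cardiac troponin T, was called lower in NZO than in B6 (at least 1.18-fold, limma adjusted p = 0.0257) and than in DBA (at least 1.44-fold, adjusted p = 0.00582). The first of these was lost without B6 10, B6 15 or NZO 9 alone (adjusted p up to 0.0941) and changed sign with normexp background correction (0.03). The second held without any single mouse but was lost in 2 of 30 alternative settings (limma adjusted p up to 0.774). Its smallest difference over the settings was -0.05. In C3H minus 129Ola, Myl3 was higher. Tnnt2 also passed there, but its probe entered the test through C3H alone, so that count is a description. The mean over the cardiac list was highest in NZO 7, at -2.87, against -4.15 to -3.09 in the other mice.

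Of 8 smooth muscle genes, 7 were tested, and none was called in NZO minus B6, against 17.7% of all probes. Actg2 was lower in NZO than in DBA by a log2 difference of -1.39 (limma adjusted p = 0.0229), and Tagln was lower in DBA than in B6 (-0.61, adjusted p = 0.0188). In C3H minus 129Ola, Acta2, Actg2 and Myh11 were higher. Synm passed as lower, but its probe entered the test through 129Ola alone, where it was high. Each of the other smooth muscle calls was lost without some single mouse of the strains compared, B6 15, DBA 15 or 129Ola 5 among them, with adjusted p up to 0.120. In NZO 7 the smooth muscle mean was -1.37, inside the range of -2.25 to -0.11 of the other mice.

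Of 8 adipocyte genes, 4 were tested. Adrb3, an adrenergic receptor of fat cells, was at least 46.0-fold lower in NZO than in B6 (limma adjusted p = 1.31e-12). It was also called in the other 3 comparisons. Cfd and Fabp4 were higher in C3H than in 129Ola, and no other adipocyte gene was called. The call of Cfd was lost without C3H 1 (adjusted p = 0.0533). Of 8 pancreatic acinar genes, 5 were tested, and Cela2a and Cela1 were the 2 called in comparisons with NZO. The probe of Cela2a entered the test through B6 alone, where it was high, and its call in NZO minus B6 was lost without B6 15, NZO 7 or NZO 11 alone (adjusted p up to 0.0716). The adipocyte and pancreatic means of NZO 7 (-3.13 and -2.26) lay within the range of the other mice. Of 10 hepatocyte genes, none was called in either comparison with NZO, against 17.7% and 17.0% of all probes. Of these 10, 1 was called in DBA minus B6 and 2 in C3H minus 129Ola, namely Hpx at -0.40, and Ttr and Fgb at 0.39 and 0.34. The calls of Hpx and Fgb were lost without single mice (adjusted p up to 0.0973 and 0.0940).

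The genes most like Myom2 were ranked by Pearson r over the 20 arrays among 20560 tested genes, as a description in which the strain means carry most of the spread. They were LOC630751 (r = 0.958), Vldlr (0.955), Dera (0.946), Abcb1b (0.941) and Olfr224 (0.937). None was a gene of the muscle lists. Vldlr, a lipoprotein receptor, had means of 0.58 in NZO and 1.59 in 129Ola and of -2.37 in B6, -2.08 in DBA and -2.62 in C3H. Dera, an enzyme of deoxyribose breakdown, had 2.91 and 2.92 against 0.36, 0.65 and -0.42 in the same order of strains. The probes of Vldlr, Dera, Abcb1b and Olfr224 map to chromosomes 19, 6, 5 and 11 in mm9, away from Myom2 on chromosome 8, and that of LOC630751 carries no position.

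The genes most like the mean of the 7 muscle members were of another kind. They were Tnni2 (r = 0.956), Myl1 (0.922), Tnnc2 (0.908), Myh8 (0.882) and Tcap (0.878), which encode fast troponin I, a fast myosin light chain, fast troponin C, the perinatal myosin heavy chain and the titin cap. Tnni2 was at 3.44 in NZO 7, 1.58 in B6 10 and 1.23 in DBA 9, and between -1.67 and 0.14 in the other 17 mice. Myh8, which was in no muscle list used here, was at 3.65, 2.50 and 2.09 in those 3 mice and between -3.97 and 0.31 in the rest. The 2 rankings shared no gene among their first 5.

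Within 1 Mb of the Myom2 probe lie 23 further probes with 16 names, of which 6 were tested. None of the 6 was called in NZO minus B6, where 17.7% of all probes were. Arhgef10, a guanine nucleotide exchange factor whose probe lies at -133.2 kb, was high in DBA and C3H, at -0.15 and -0.05, and at -3.10 in B6. It was not well above background in NZO or 129Ola, the strains with high Myom2. It was higher in DBA than in NZO by at least 12.1-fold (limma adjusted p = 4.97e-09) and in C3H than in 129Ola by at least 6.32-fold (adjusted p = 6.45e-09). It was also higher in DBA than in B6, by 2.95 (SE 0.24, adjusted p = 7.57e-08), strains in which Myom2 was mostly not well above background.

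Kbtbd11, a Kelch-domain protein with its tested probe at -100.1 kb, was at 0.31 in 129Ola, -1.10 in B6, -1.63 in NZO, -2.04 in DBA and -2.54 in C3H. C3H minus 129Ola was -2.85 (SE 0.21, limma adjusted p = 1.61e-08), and DBA minus B6 was -0.94 (SE 0.21, adjusted p = 0.00414). NZO minus B6 was -0.53 (SE 0.21, adjusted p = 0.0979). The Kbtbd11 probes A_55_P2046007 and A_55_P2075213 did not enter the test. In C3H minus 129Ola they differed by 1.22 and 0.12, so the probes of this gene disagreed in direction. The former was well above background in 3 C3H livers and no 129Ola liver, and the latter in none of either strain. Cln8 and a probe named NAP019088-001 were called in C3H minus 129Ola, with differences of -0.43 and 0.80, and both calls were lost without 129Ola 5 and other single mice (adjusted p up to 0.119 and 0.0657). Neither Arhgef10 nor Kbtbd11 was high in both NZO and 129Ola.

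RefSeq promoter windows of GRCm38.p6 were matched by symbol for 6 of the 8 members. The 250 bases before the start of Acta1, Ckm and Myh4 are shown because these genes moved together from mouse to mouse. Capitals mark matches to the E-box, CANNTG, which reads the same on both strands and is the site of the myogenic MyoD family, and to the CArG box, the site of serum response factor, which was also searched on both strands.
Acta1: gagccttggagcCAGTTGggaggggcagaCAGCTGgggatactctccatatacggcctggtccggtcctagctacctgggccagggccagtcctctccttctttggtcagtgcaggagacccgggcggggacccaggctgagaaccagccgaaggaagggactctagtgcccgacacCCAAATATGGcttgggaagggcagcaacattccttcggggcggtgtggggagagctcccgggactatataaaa
Ckm: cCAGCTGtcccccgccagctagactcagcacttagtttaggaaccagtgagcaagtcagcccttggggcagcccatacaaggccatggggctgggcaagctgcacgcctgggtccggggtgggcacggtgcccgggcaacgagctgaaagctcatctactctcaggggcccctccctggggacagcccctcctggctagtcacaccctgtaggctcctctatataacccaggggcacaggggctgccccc
Myh4: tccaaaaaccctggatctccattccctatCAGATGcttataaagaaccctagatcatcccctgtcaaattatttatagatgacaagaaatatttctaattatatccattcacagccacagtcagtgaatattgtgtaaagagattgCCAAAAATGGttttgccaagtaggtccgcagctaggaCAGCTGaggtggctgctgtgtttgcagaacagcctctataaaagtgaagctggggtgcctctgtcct

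The windows lie at chr8:123894776-123895025 on the minus strand (Acta1), chr7:19410844-19411093 on the plus strand (Ckm) and chr11:67237562-67237811 on the plus strand (Myh4). Acta1 and Myh4 each hold 2 E-boxes and 1 CArG box, and Ckm holds 1 E-box, with no overlap between the motifs. Myom1, which was not well above background in any mouse, holds 3 E-boxes and 1 CArG box. Mylpf holds 1 E-box. For Pvalb, the window at chr15:78204238-78204487 holds 1 E-box and that at chr15:78206401-78206650 none. Neither Mylpf nor Pvalb holds a CArG box. Of all 32851 RefSeq windows of this length, 66.2% hold an E-box and 1.47% a CArG box. A match describes the letters and is no evidence of binding.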

How the data were processed

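Liver RNA of 20 mice was hybridised to single-colour Agilent arrays. The members and the gene lists were chosen with earlier results of these data known. The deposited scanner files give processed signal intensity per spot; per the file headers, Agilent Feature Extraction 11.0.1.1 (B6, NZO, DBA) or 11.5.1.1 (C3H, 129Ola) was used, while the submitters' processing notes name 9.1. From these intensities, outlier-flagged spots and the 3671 control spots of the 62976 on each array were left out, replicate spots were averaged on the log2 scale, and each array's own 75th percentile was then subtracted. A probe counted as well above background only if all its spots were so flagged. The 28417 probes that met this in all 4 mice of some strain were tested with limma 3.58.1 (R 4.3.3), as a mean per strain over 20 arrays (15 residual degrees of freedom), with Benjamini-Hochberg adjustment and a threshold of 0.05. The test was checked on simulated data. A gene was called if any tested member probe passed; in the other lists the brightest probe stood for a gene. Named genes were all members, up to 5 genes past the threshold per list and comparison, the 5 genes most like Myom2 and most like the muscle mean, and genes within 1 Mb of the Myom2 probe. The authors' deposited value table, with no unit given, was compared with the scanner values: all 20 of its columns ranked closest to their own array (lowest rank correlation 0.955), and all have the median 19.9 and the same sorted values, so it was quantile-normalised on a linear scale (score), centred on no gene and running in the direction of the signal. It lists 10 of the 11 member probes. Alternatives were other background correction, scaling, filters, source of values, blocks, each mouse left out and other muscle covariates.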

Additional observations from a re-analysis of the deposited data

Results flagged for a closer look

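Among 36 groups of 4 mice in which a member probe was well above background at least once, 10 held a mouse far from the other 3 by Dixon's ratio. Chance gives about 1 in 20 for independent groups. These groups share mice and genes, and 1 high mouse could let a group in, so their number is not compared with that rate. In NZO, Ckm, Tnnt3 (A_55_P2088375), Mylpf (A_55_P2170381) and Pvalb (A_55_P2059040) entered through NZO 7 alone. Ckm in DBA likewise entered through DBA 9 alone. NZO 7 was the distant mouse in 6 of the 10 groups. Its level stood far above those of NZO 3, 9 and 11 for Acta1 at 2.99, Ckm at 0.28, Tnnt3 at 0.25 (A_51_P345699) and 1.45 (A_55_P2088375), Mylpf at -3.21 (A_55_P2170381) and Pvalb at -0.13 (A_55_P2059040). DBA 9 stood above the other DBA mice for Ckm at -2.54 and for Tnnt3 at -0.83 (A_55_P2088375). In 129Ola, mouse 9 stood below the others for Mylpf at -2.76 (A_55_P2058591) and mouse 7 below the others for Pvalb at 0.95 (A_55_P2114437). No group of Myom2 levels was so set apart.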

How the results depend on the processing

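NZO minus B6 for Myom2 kept its sign under every alternative run. With normexp background correction it was 5.07, and 5.07 with the muscle level held; NZO minus DBA was 5.03 and C3H minus 129Ola -4.64. Leaving out 1 mouse at a time gave 8.67 to 9.94, and 8.79 to 10.9 with the muscle level held. The count of muscle genes called ran from 0 to 3 in NZO minus B6 and from 0 to 3 in NZO minus DBA when 1 mouse was left out, 3 lower without NZO 7, and stayed at 0 in the other 2 comparisons. Without B6 10, NZO 7 and DBA 9, an alternative chosen after seeing the data, 2 and 3 were called lower. All of these lower calls rest on probes that entered the test through B6 and DBA alone, the higher strains. With no filter on dim probes 1 muscle gene, Myom1, was lower in DBA than in B6; it was above background on no array, and 1 gene had an unadjusted p under 0.05 in NZO minus DBA, DBA minus B6 and C3H minus 129Ola alike. With the animal number as a replicate block the Myom2 difference was 9.97 and 0 muscle genes were called in each comparison; that block ended the calls of Tnnt1, Mybpc1 and Nrap, of Myom3 in DBA minus B6 and C3H minus 129Ola (adjusted p = 0.215 and 0.471) and of Cmya5. The numbers do not pair the mice: of 13 same-numbered pairs, 2 had correlated deviations over 0.1 (median -0.02). Restricting the test to probes above background on all arrays left no Myom2 value, and a scan day block could not be fitted for C3H minus 129Ola. Dim signals limit the muscle members: Ckm and Myom1 had no tested probe, and Myom2 rests on 1 probe. The causes of these changes were not tested.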
